A study of Mus musculus with 16 samples.

Results

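The 10 genes described here are the 2 corticosteroid receptor genes of the mouse and 8 genes whose transcription is raised by glucocorticoids in many tissues. The receptors are Nr3c1, which encodes the glucocorticoid receptor, and Nr3c2, which encodes the mineralocorticoid receptor. The hormone-induced genes are Fkbp5, Sgk1, Tsc22d3, Zbtb16, Plin4, Mt1, Mt2 and Hif3a. They were taken by gene symbol from a table of 49315 genes, in which each symbol had 1 row, and all 10 passed the filter on low counts that left 17469 genes for testing. RNA of the mouse hippocampus was sequenced from 4 groups of 4 libraries: wild type mice fed a standard diet, Kcna1 knockout mice fed that diet, and both genotypes fed a ketogenic diet. They are called standard-fed and ketogenic-fed wild types or knockouts below. The product of Kcna1 is a subunit of a voltage-gated potassium channel, and mice that lack it have seizures. A ketogenic diet is rich in fat and poor in carbohydrate. The knockout allele, strain, age, sex and length of the diet were not in the labels, and the libraries are named by the animal tags of their columns.

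Corticosterone, the main glucocorticoid of the mouse, enters cells and binds both receptors, which then move to the nucleus and act on DNA as ligand-bound transcription factors. The mineralocorticoid receptor binds it with the higher affinity and is abundant in hippocampal neurons, so that it is largely occupied at basal hormone levels, while the glucocorticoid receptor is occupied mainly at the daily peak and under stress. Genes such as Fkbp5, Sgk1, Tsc22d3 and Zbtb16 are widely used as readouts of the hormone because their transcripts rise when it does. Several of the genes also respond to other signals, among them zinc and oxidative stress for Mt1 and Mt2, which encode small metal-binding proteins.

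Libraries held 13440230 to 22309504 counts. Kcna1 (ENSMUSG00000047976), the targeted gene, measured 107 to 130 CPM (the usual depth-scaled count) in the 8 wild type libraries and 43.4 to 47.2 CPM in 7 of the 8 knockout libraries. The library labelled KC888LL, knockout on the standard diet, stood apart at 82.0 CPM, outside the range of either genotype. It is counted among the standard-fed knockouts by its label alone, so the main fold changes against that group are given with and without it. Of the 16 libraries, 4 expressed the Y-linked gene Ddx3y, at 56.5 CPM or above, and the others had at most 1.63 CPM. These were KC890RL (wild type, standard diet), KC872RL and KC873RR (knockout, standard diet) and KC846L (wild type, ketogenic diet). No ketogenic-fed knockout library was among them. Markers of neurons, astrocytes, microglia and oligodendrocytes were above 0 in all 16 libraries. In bulk RNA, fewer cells of a type and less RNA per cell cannot be told apart.

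Upstream sequence is shown for Mt1 and Mt2, which had the largest fold changes of the 10 genes between the genotypes on the standard diet, and for Sgk1, whose window held a full glucocorticoid response element. RefSeq windows of 300 bases, from 250 before to 50 after a gene's start (GRCm38), matched 8 of the 10 genes with 15 windows. The element was searched as AGAACA and TGTTCT with any 3 bases between them, which reads the same on both strands. It was present in 3 of all 32817 windows, or 0.00914%, and in 1 of the 15, a window of Sgk1, which has 6. The metal response element was searched as TGCACNC or TGCGCNC on both strands, and 25.7% of all windows held it. The window of Mt2 held 4 matches, a number reached by 0.518% of windows, and that of Mt1 held 3, reached by 1.97%. Windows of 5 of the 10 genes had at least 1 match, and none of the 15 held both motifs. The stretches below lie upstream of the start of their window, are on the plus strand, and carry the matches in capitals. They hold 3 matches for Mt2 at chr8:94172368-94172607, 1 for Mt1 at chr8:94178839-94179078 and the response element of Sgk1 at chr10:21993640-21993879. Sgk1 has other annotated starts further upstream, so its stretch lies inside the annotated span of the gene. A match is a description of letters and not evidence of binding.
Mt2: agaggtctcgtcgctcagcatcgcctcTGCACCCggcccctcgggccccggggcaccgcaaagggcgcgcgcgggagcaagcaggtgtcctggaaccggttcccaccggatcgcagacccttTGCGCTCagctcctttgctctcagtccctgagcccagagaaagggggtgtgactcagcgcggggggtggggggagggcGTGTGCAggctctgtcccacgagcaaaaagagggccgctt
Mt1: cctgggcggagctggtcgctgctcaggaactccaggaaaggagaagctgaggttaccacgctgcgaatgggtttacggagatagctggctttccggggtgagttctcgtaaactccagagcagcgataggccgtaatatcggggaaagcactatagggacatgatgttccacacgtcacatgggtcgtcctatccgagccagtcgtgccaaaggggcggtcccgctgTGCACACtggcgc
Sgk1: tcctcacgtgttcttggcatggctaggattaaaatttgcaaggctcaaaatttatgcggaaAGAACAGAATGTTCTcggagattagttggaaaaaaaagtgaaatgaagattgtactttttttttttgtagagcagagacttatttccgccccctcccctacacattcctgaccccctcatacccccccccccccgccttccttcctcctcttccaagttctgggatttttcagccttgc

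Of the receptors, Nr3c2 showed the clearer pattern: it was lower in 3 of the 4 standard-fed knockout libraries than in any other library. Nr3c2 (ENSMUSG00000031618, chr8:76899442-77245012, plus strand, GRCm38) measured 206, 233, 206 and 215 CPM in the wild type libraries KC890RL, KC894RLL, KC897RR and KC900RLL on the standard diet. In the knockouts fed that diet it measured 147 CPM in KC872RL, 157 in KC873RR, 232 in KC888LL and 165 in KC893RL. The outlying library for Kcna1 was thus also the one with a wild type level of Nr3c2. On the ketogenic diet Nr3c2 measured 206, 234, 218 and 263 CPM in the wild type libraries KC842L, KC843RL, KC844RR and KC846L, and 263, 213, 209 and 201 CPM in the knockout libraries KC913RR, KC916RRL, KC934R and KC935LL. Every library on this diet lay above the 3 low ones. Per-library values below follow the same order.

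With all 16 libraries the log2 fold change of Nr3c2 between standard-fed knockouts and wild types was -0.30 ± 0.12 (SE), which did not pass the threshold (edgeR quasi-likelihood test with Benjamini-Hochberg adjustment, adjusted p = 0.298). Without KC888LL it fell by 0.47 ± 0.09 on the log2 scale and passed it (edgeR, adjusted p = 0.00752). For the ketogenic diet in the knockout the value was 0.34 ± 0.12 with all libraries (edgeR, adjusted p = 0.181), and Nr3c2 rose by 0.51 ± 0.09 without KC888LL (edgeR, adjusted p = 0.00499). Both comparisons use the same standard-fed knockout libraries, of which 2 of the 3 left without KC888LL expressed Ddx3y. Without KC888LL those 3 libraries did not overlap either of the groups they were compared with. When the level of Xist, a transcript of the inactive X chromosome, was added as a covariate to the fit without KC888LL, Nr3c2 kept the call for genotype, at -0.49 (edgeR, adjusted p = 0.0297), and was at 0.54 ± 0.11 for the diet in the knockout, which missed the threshold (edgeR, adjusted p = 0.0531). For Nr3c2 the diet in wild type gave 0.10 ± 0.12 (edgeR, adjusted p = 0.998), and from 0.03 to 0.15 with 1 library left out. The interaction of genotype and diet, which tests whether the diet effects differ, was 0.24 ± 0.18 with all libraries (edgeR, adjusted p = 0.774) and 0.41 ± 0.12 without KC888LL (edgeR, adjusted p = 0.211), and did not pass the threshold in either fit. Without KC913RR it was 0.15. Summed neuron markers were also lowest in the knockout libraries with low Nr3c2, at 8346 CPM in KC872RL, 8599 in KC873RR and, after 9308 in KC913RR, 9511 in KC893RL, while the other 12 libraries held 9952 to 11950 CPM. KC913RR had one of the highest Nr3c2 levels.

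Some markers of the hippocampal fields were called in the same comparisons and fit as Nr3c2, not all in 1 direction. For genotype on the standard diet without KC888LL, 2 of 4 dentate granule cell markers, Dsp and Calb1, were called lower and C1ql2 was called higher (edgeR), against 5.73% of all genes, while 0 of 3 markers each of CA1, CA2 and CA3 were called. Dsp, which encodes desmoplakin, measured 28.6 CPM in KC872RL, 37.6 in KC873RR and 26.1 in KC893RL, against 118 in KC888LL. Ketogenic-fed knockouts held 50.6 CPM of Dsp in KC913RR, 106 in KC916RRL, 39.1 in KC934R and 102 in KC935LL. Wild types of both diets held 75.0 to 198 CPM. KC913RR and KC934R were thus low in Dsp but not in Nr3c2, which measured 263 and 209 CPM there. Calb1, which encodes the calcium-binding protein calbindin, measured 73.5, 80.7 and 74.5 CPM in the 3 libraries with low Nr3c2, against 129 in KC888LL. With the diet in the knockout, in the same fit, Calb1 and the CA3 marker Grik4 were called higher, against 6.18% of all genes, and 0 of the CA1 and CA2 markers were called. With all libraries 0 markers of the 4 fields were called in both comparisons (edgeR), with 2 dentate and 1 CA3 marker at an unadjusted p under 0.05 for genotype, against 14.3% of all genes, and 1 and 2 for the diet, against 16.9%. The part of neurons or of these fields in the level of Nr3c2 was not tested.

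Nr3c1 (ENSMUSG00000024431) varied less and was lowest in the ketogenic-fed knockouts. It measured 89.1, 84.4, 75.7 and 95.1 CPM in the standard-fed wild types and 80.2, 82.6, 85.4 and 81.5 CPM in the standard-fed knockouts. The ketogenic-fed wild types held 89.1, 78.5, 83.1 and 80.1 CPM and the ketogenic-fed knockouts 60.7, 77.4, 71.3 and 76.6 CPM. The last group lay below every library of both groups it was compared with, and its lowest value was that of KC913RR. The log2 fold change was -0.21 ± 0.08 (SE) against ketogenic-fed wild types (edgeR, adjusted p = 0.437) and -0.20 ± 0.08 (SE) against standard-fed knockouts (edgeR, adjusted p = 0.182). Without KC888LL the latter was -0.18 ± 0.08 (edgeR, adjusted p = 0.208). Without KC913RR the values for Nr3c1 were nearer 0, at -0.14 and -0.13. None passed the threshold. On the standard diet the genotypes differed by -0.06 ± 0.08 (edgeR, adjusted p = 0.759), and leaving out KC888LL gave -0.09 ± 0.08.

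The ratio of Nr3c2 to Nr3c1 counts needs no scaling between libraries. It was 2.32, 2.76, 2.72 and 2.26 in the standard-fed wild types and 1.83, 1.90, 2.71 and 2.02 in the standard-fed knockouts. On the ketogenic diet it was 2.31, 2.99, 2.62 and 3.29 in wild type and 4.33, 2.75, 2.93 and 2.63 in the knockout. The 3 lowest ratios of the 16 were those of KC872RL, KC873RR and KC893RL, and KC888LL, at 2.71, lay among the wild type values. The highest, in KC913RR, joined the lowest Nr3c1 with a high Nr3c2. On the log2 scale the groups averaged 1.32 ± 0.15 in wild type and 1.06 ± 0.26 in the standard-fed knockouts, and 1.47 ± 0.22 and 1.63 ± 0.33 on the ketogenic diet (SD, n = 4 each). The ratio was not tested, because the genes were chosen with earlier results known.

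**Figure D1:**
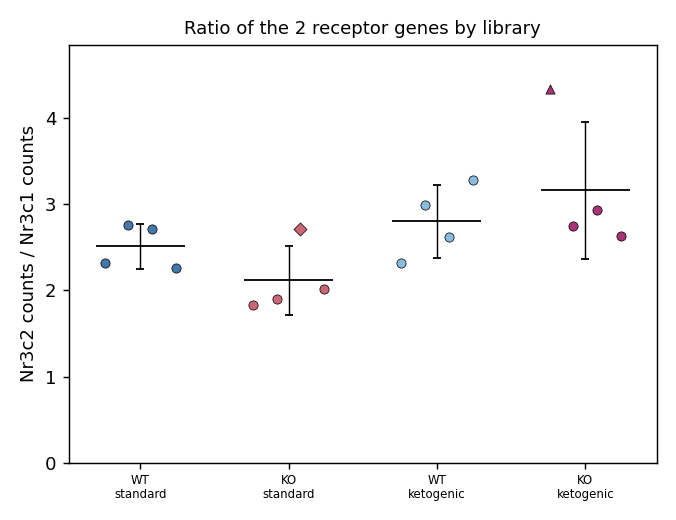
Ratio of Nr3c2 to Nr3c1 counts (y axis, no unit) in each library of the 4 groups (x axis), with bars at group means and whiskers of 1 SD (n = 4), the diamond marking KC888LL and the triangle KC913RR. The 3 round knockout points on the standard diet, at 1.83 to 2.02, lie below every other library, and KC913RR lies highest at 4.33.

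Among the hormone-induced genes, the metallothioneins had the largest differences between the standard-fed genotypes. Mt1 (ENSMUSG00000031765, chr8:94179082-94180327) and Mt2 (ENSMUSG00000031762, chr8:94172664-94173568) lie on the plus strand with 5513 bases between them. Mt1 measured 88, 70.4, 95.6 and 74.4 CPM in the standard-fed wild types and 154, 163, 82.4 and 122 CPM in the standard-fed knockouts. The 3 libraries of that group other than KC888LL exceeded every wild type library, and the library labelled KC888LL, at 82.4 CPM, lay inside the wild type range. The ketogenic-fed wild types held 83.9, 77.9, 82.4 and 84.3 CPM and the ketogenic-fed knockouts 117, 71.8, 67.5 and 83.2 CPM, of which KC913RR alone was above the wild types.

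The log2 fold change of Mt1 between standard-fed knockouts and wild types was 0.67 ± 0.20 (SE), or 1.59-fold, which did not pass the threshold (edgeR, adjusted p = 0.205). Without KC888LL Mt1 rose by 0.83 ± 0.17 (edgeR, adjusted p = 0.0131). With Xist as a covariate in that fit the value was 0.70 ± 0.18 and missed the threshold (edgeR, adjusted p = 0.0796). Ketogenic against standard diet in the knockout gave -0.62 ± 0.20 with all libraries (edgeR, adjusted p = 0.149) and a fall of 0.78 ± 0.16 without KC888LL (edgeR, adjusted p = 0.0176). With Xist as well this was -0.62 ± 0.20 and missed the threshold (edgeR, adjusted p = 0.161). Over all alternatives run, this diet value of Mt1 ranged from -0.81 to -0.39 and its interaction of genotype and diet from -0.81 to -0.36. DESeq2 called Mt1 with all libraries in both comparisons, at 0.66 (adjusted p = 0.0388) and -0.61 (adjusted p = 0.0260). For Mt1 the diet in wild type gave 0.00 ± 0.20 (edgeR, adjusted p = 1.00), and the interaction was -0.62 ± 0.29 (edgeR, adjusted p = 0.665) or, without KC888LL, -0.78 ± 0.23 (edgeR, adjusted p = 0.209).

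Mt2 followed Mt1. It measured 38.6, 31.6, 44.2 and 36.4 CPM in the standard-fed wild types and 92.6, 86.4, 40.6 and 57.0 CPM in the standard-fed knockouts. Ketogenic-fed wild type libraries held 38.8, 32.7, 35.3 and 36.1 CPM and the knockout libraries 69.6, 29.3, 27.3 and 33.1 CPM. The level in KC913RR was again the single high value of its group. The log2 fold change between standard-fed knockouts and wild types was 0.88 ± 0.30 (SE) with all libraries (edgeR, adjusted p = 0.239) and 1.06 ± 0.28 without KC888LL (edgeR, adjusted p = 0.0507), just short of the threshold. The diet in the knockout gave -0.80 ± 0.30 (edgeR, adjusted p = 0.204) and, without KC888LL, -0.98 ± 0.28 (edgeR, adjusted p = 0.0629). With Xist as a covariate in the fit without KC888LL, Mt2 was at 0.87 ± 0.33 for genotype on the standard diet (edgeR, adjusted p = 0.22). For the diet in the knockout that fit gave -0.75 ± 0.36 (edgeR, adjusted p = 0.344). Without KC913RR, the stray library, the diet value of Mt2 was -1.21. Over all alternatives run it ranged from -1.21 to -0.49.

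The coding sequences of Mt1 and Mt2, 186 bases each, were identical at 148 positions, or 79.6%, and how reads shared by both were counted is not given in the sources used here. The ratio of Mt2 to Mt1 counts ranged from 0.398 to 0.603. It was highest in KC872RL (0.603), KC913RR (0.594) and KC873RR (0.530), while KC893RL, where Mt1 and Mt2 were also high, had 0.466, inside the wild type range of 0.420 to 0.489. Of the 588 exonic bases of Mt2, 432 overlap Gm45774 on the other strand. Mt2 exceeded Gm45774 by 9.80 to 23.6 times in counts.

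The libraries with high Mt1 and Mt2 also had high Gfap. This gene, which encodes an intermediate filament of astrocytes, measured 2327 CPM in KC872RL, 1340 in KC873RR, 611 in KC893RL and 348 in KC888LL, and 2018 in KC913RR, against 294 to 390 CPM in wild type. KC934R, with 1059 CPM of Gfap, had the lowest Mt1 and Mt2 of its group. Of the 9 listed astrocyte markers, all were higher in the standard-fed knockouts and 0 were called by edgeR, with 2 at an unadjusted p under 0.05, against 14.3% of all genes. Their summed level was 4695 to 5236 CPM in the wild types and 4861 to 7250 CPM in the knockout on that diet, and 4709 to 5107 and 4817 to 6211 CPM on the ketogenic diet. All 8 microglia markers were higher in the standard-fed knockouts, with 0 called and 6 at an unadjusted p under 0.05 with all libraries. Without KC888LL, the fit in which Mt1 was called, 5 of the 8 microglia markers and 0 of the 9 astrocyte markers were called higher (edgeR), where 5.73% of all genes were called. The microglia sum was 544 CPM in both KC872RL and KC873RR and 240 to 295 CPM in the other 14 libraries, KC893RL and KC913RR included. KC872RL and KC873RR also had the highest Mt1 and Mt2 of all libraries, and were the standard-fed knockouts that expressed the Y-linked Ddx3y. No ketogenic-fed knockout library expressed it. The part of either cell type in the metallothionein levels was not tested.

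**Figure D2:**
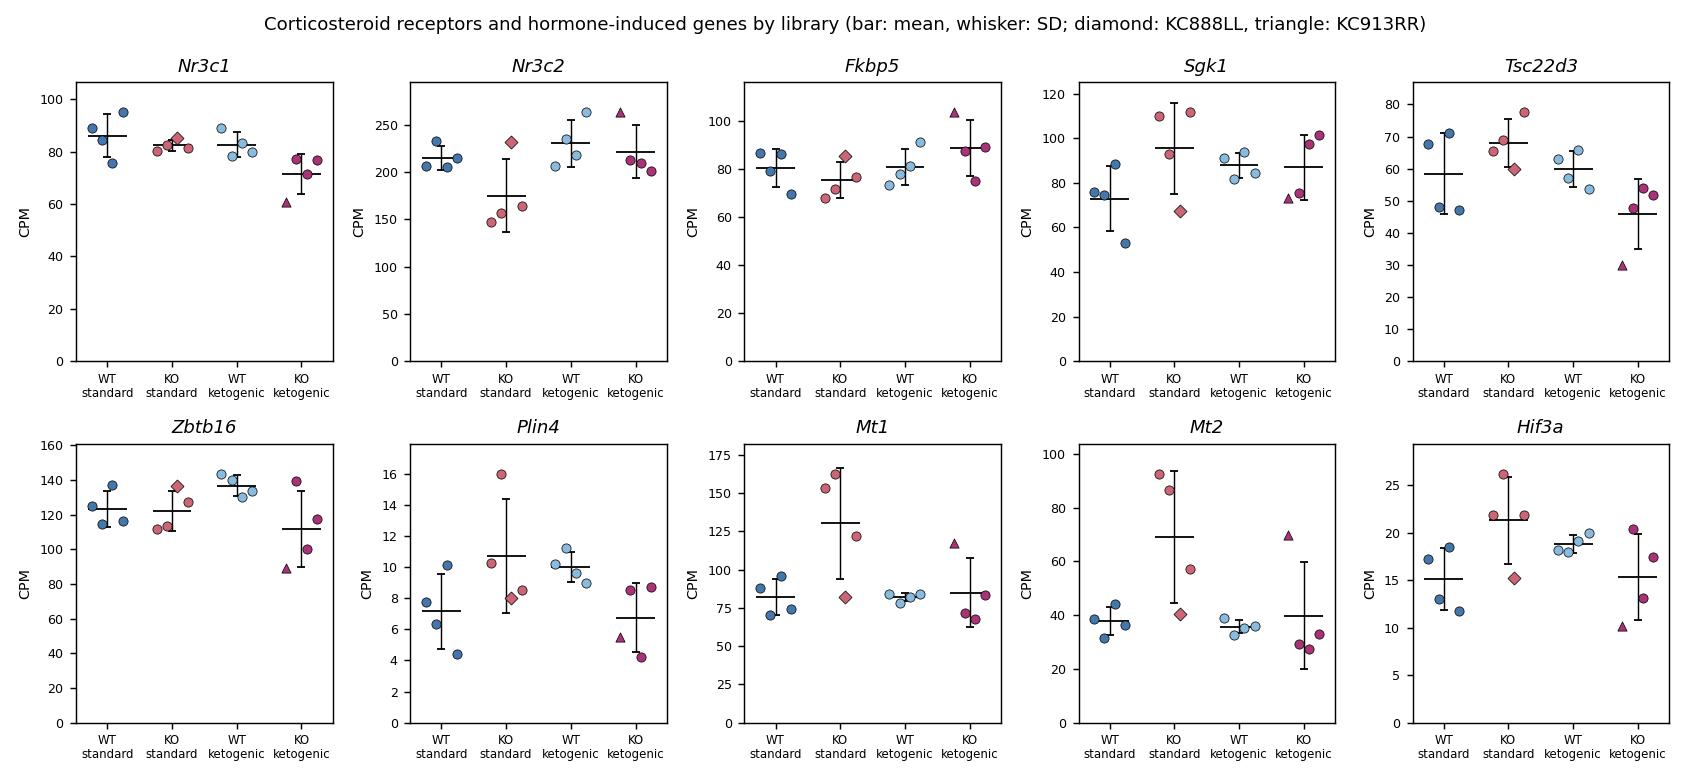
Level in CPM (y axes, from 0) of each of the 10 genes in each library of the 4 groups (x axes), with bars at group means and whiskers of 1 SD (n = 4), the diamond marking KC888LL and the triangle KC913RR. Among the libraries labelled standard-fed knockout KC888LL is the lowest library for Mt1 (82.4 CPM), Mt2 (40.6), Sgk1 (67.2) and Hif3a (15.2) and the highest for Nr3c2 (232).

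Sgk1 (ENSMUSG00000019970, chr10:21882184-21999903, plus strand) encodes a kinase that regulates ion channels and transporters and is induced by both receptors. It measured 75.7, 74.6, 88.4 and 53.2 CPM in the standard-fed wild types and 110, 93.0, 67.2 and 112 CPM in the standard-fed knockouts. As for Mt1, of the 4 libraries labelled standard-fed knockout KC888LL alone lay inside the range of the standard-fed wild types. The ketogenic-fed wild types held 91.2, 81.9, 94.0 and 84.3 CPM and the ketogenic-fed knockouts 73.4, 75.7, 97.2 and 102 CPM, on both sides of the wild type range. Between standard-fed knockouts and wild types the log2 fold change was 0.39 ± 0.17 (SE) (edgeR, adjusted p = 0.321), and 0.52 ± 0.15 without KC888LL (edgeR, adjusted p = 0.0568). With Xist as a covariate in the fit without KC888LL it was 0.55 ± 0.17 (edgeR, adjusted p = 0.128). No comparison of Sgk1 passed the threshold in any of these fits.

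Tsc22d3 (ENSMUSG00000031431, chrX:140539528-140600659, minus strand) encodes GILZ, a leucine zipper protein that mediates part of the anti-inflammatory action of glucocorticoids. It measured 67.7, 48.1, 71.0 and 47.1 CPM in the standard-fed wild types and 65.6, 68.9, 59.8 and 77.6 CPM in the standard-fed knockouts. The ketogenic-fed wild types held 63.1, 57.0, 65.9 and 53.7 CPM and the ketogenic-fed knockouts 29.9, 47.6, 54.0 and 51.8 CPM. All 4 ketogenic-fed knockout libraries lay below all 4 on the standard diet, and KC913RR was the lowest of the 16 libraries. The log2 fold change for the diet in the knockout was -0.57 ± 0.17 (SE) (edgeR, adjusted p = 0.121), and DESeq2 called it at -0.56 (adjusted p = 0.0218). Without KC888LL it was -0.62 ± 0.19 (edgeR, adjusted p = 0.0708). With Xist as a covariate as well it was -0.68 ± 0.24 (edgeR, adjusted p = 0.199). For Tsc22d3 the diet in wild type gave 0.03 ± 0.17 (edgeR, adjusted p = 0.998). The difference between these diet effects, -0.60 ± 0.24 (SE), did not pass the threshold (edgeR, adjusted p = 0.654), nor did -0.65 ± 0.26 without KC888LL (edgeR, adjusted p = 0.350).

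Hif3a (ENSMUSG00000004328, chr7:17031507-17062427, minus strand) encodes a hypoxia-inducible factor subunit, some isoforms of which inhibit the pathway. It measured 17.3, 12.99, 18.5 and 11.8 CPM in the standard-fed wild types and 21.9, 26.2, 15.2 and 21.9 CPM in the standard-fed knockouts. Ketogenic-fed wild type libraries held 18.2, 18.0, 19.2 and 19.99 CPM, and the knockout libraries 10.2, 20.4, 13.2 and 17.4 CPM. The ketogenic-fed wild type libraries were close together, with a coefficient of variation of 4.96%, against 21.5% on the standard diet. This was not particular to Hif3a: it was 9.61% against 33.6% for Plin4 and 6.47% against 20% for Sgk1. Nr3c2 went the other way, with 10.7% against 5.96%. Between standard-fed knockouts and wild types the log2 fold change was 0.49 ± 0.20 (SE) (edgeR, adjusted p = 0.281), and 0.62 ± 0.19 without KC888LL (edgeR, adjusted p = 0.0703). The diet in the knockout gave -0.48 ± 0.20 (edgeR, adjusted p = 0.233) and, without KC888LL, -0.61 ± 0.19 (edgeR, adjusted p = 0.0713). Over all alternatives run it ranged from -0.64 to -0.31. With Xist as a covariate in the fit without KC888LL, Hif3a was at 0.52 ± 0.22 for genotype on the standard diet (edgeR, adjusted p = 0.244). For the diet in the knockout that fit gave -0.48 ± 0.23 (edgeR, adjusted p = 0.338). The interaction was -0.80 ± 0.28 (edgeR, adjusted p = 0.654) and, without KC888LL, -0.93 ± 0.26 (edgeR, adjusted p = 0.195).

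Plin4 (ENSMUSG00000002831, chr17:56100591-56109803, minus strand), which encodes a lipid droplet coat protein, was the least abundant of the 10 genes. It measured 7.79, 6.33, 10.2 and 4.44 CPM in the standard-fed wild types and 10.3, 16.02, 8.01 and 8.56 CPM in the standard-fed knockouts. The ketogenic-fed wild types held 10.2, 11.2, 9.60 and 8.97 CPM and the ketogenic-fed knockouts 5.49, 8.53, 4.25 and 8.75 CPM, so all 4 knockout libraries lay below all 4 wild type libraries. The interaction, -1.15 ± 0.38 (SE), was the largest of the 10 genes in size and did not pass the threshold (edgeR, adjusted p = 0.654). Its parts were 0.48 ± 0.27 with the diet in wild type (edgeR, adjusted p = 0.951) and -0.67 ± 0.27 with the diet in the knockout (edgeR, adjusted p = 0.222). Without KC888LL the interaction was -1.27 ± 0.39 (edgeR, adjusted p = 0.221) and the diet in the knockout -0.78 ± 0.28 (edgeR, adjusted p = 0.117). Standard-fed knockouts and wild types differed in Plin4 by 0.58 ± 0.27 (edgeR, adjusted p = 0.341) and, without KC888LL, by 0.69 ± 0.28 (edgeR, adjusted p = 0.171). These values of Plin4 rested in part on single libraries. Without KC873RR, which had the highest level, the genotype value was 0.32 and the diet in the knockout -0.41, and without KC900RLL the diet in wild type gave 0.31.

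Among the hormone-induced genes, Fkbp5 and Zbtb16 had the smallest differences between the genotypes on the standard diet. Fkbp5 (ENSMUSG00000024222, chr17:28399094-28517527, minus strand) encodes an immunophilin that binds the receptor's chaperone complex and lowers its hormone affinity. It ranged from 68.1 to 104 CPM over the 16 libraries. Its group means were 80.3 ± 7.97 CPM in the wild types and 75.5 ± 7.54 CPM in the standard-fed knockouts, and 80.9 ± 7.54 and 88.9 ± 11.6 CPM on the ketogenic diet (SD, n = 4 each). The diet in the knockout gave 0.23 ± 0.10 (edgeR, adjusted p = 0.230) and, without KC888LL, 0.30 ± 0.10 (edgeR, adjusted p = 0.0787). Without KC913RR this value was 0.15. Without KC888LL and with Xist as a covariate it was 0.36 ± 0.12 (edgeR, adjusted p = 0.159). Fkbp5 was the 1 hormone-induced gene with a positive value in that comparison.

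Zbtb16 (ENSMUSG00000066687, chr9:48654297-48836222, minus strand) encodes the zinc finger transcription factor PLZF. It averaged 123 ± 10.2 CPM in the wild types and 122 ± 11.7 CPM in the standard-fed knockouts, and 137 ± 6.16 and 112 ± 21.8 CPM on the ketogenic diet (SD, n = 4 each). The last group was the most spread, from 89.4 CPM in KC913RR to 139 CPM in KC916RRL. On the ketogenic diet the genotypes differed by -0.29 ± 0.11 (SE) (edgeR, adjusted p = 0.438), and on the standard diet by -0.01 ± 0.11 (edgeR, adjusted p = 0.973) or, without KC888LL, by -0.07 ± 0.11 (edgeR, adjusted p = 0.775).

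**Figure D3:**
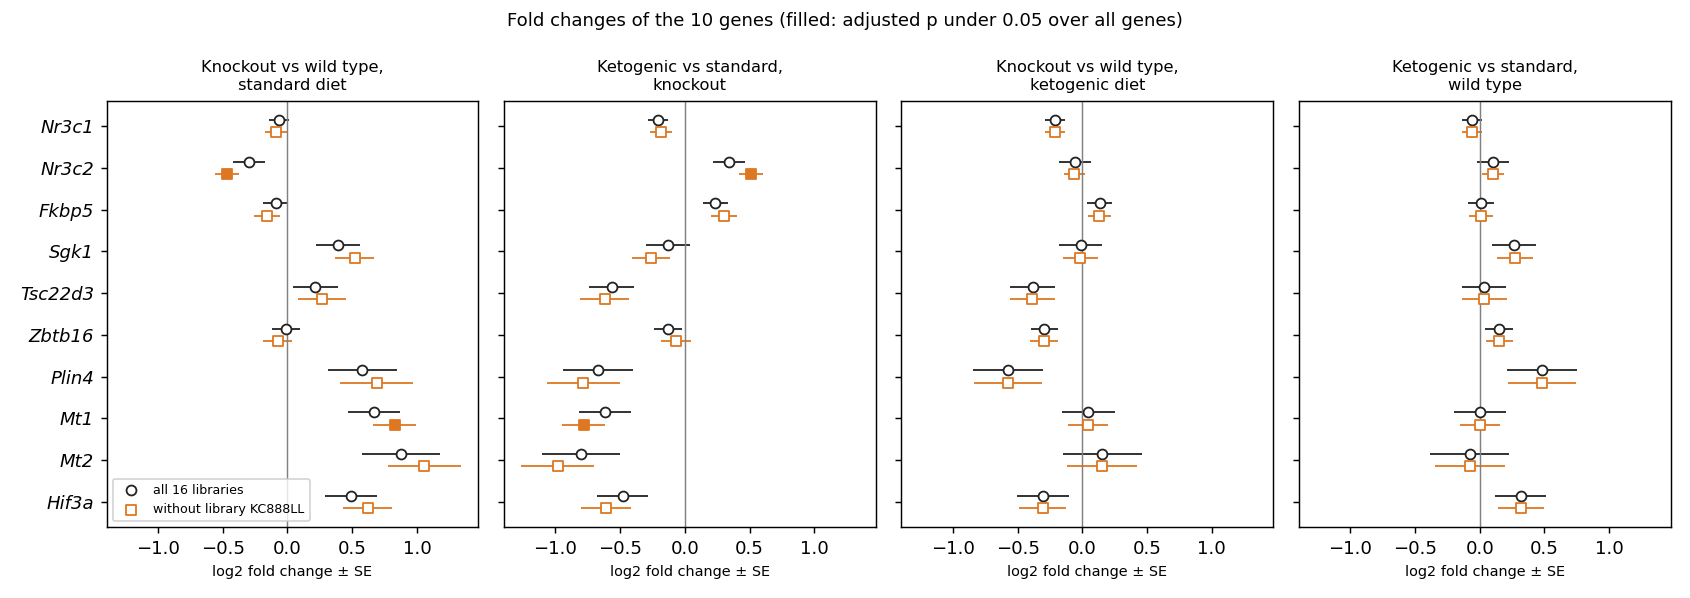
Log2 fold change (x axes, whiskers of 1 SE) of each of the 10 genes (y axis) in the 4 pairwise comparisons, from the fit of all 16 libraries (circles) and the fit without KC888LL (squares), with filled symbols for an adjusted p under 0.05. The 4 filled symbols are those of Nr3c2 (-0.47 and 0.51) and Mt1 (0.83 and -0.78) without KC888LL, in the comparisons that use the standard-fed knockouts.

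As a group, 0 of the 10 genes were called with all 16 libraries in any of the 7 contrasts (edgeR, adjusted p under 0.05 over all tested genes). The calls over all genes were few: 0.00572% of tested genes for genotype under standard feeding, 0.0172% on the ketogenic diet, 1.16% for the diet in the knockout, 0.0114% for the diet in wild type, 0% for the interaction, 0.0973% for genotype averaged over diets and 0.899% for diet averaged over genotypes. At an unadjusted p under 0.05 stood 6 of the 10 genes for genotype on the standard diet, against 14.3% of all genes, 4 on the ketogenic diet, against 9.22%, 8 for the diet in the knockout, against 16.9%, and 0 for the diet in wild type, against 5.46%. For the interaction the count was 4 of 10, against 7.48% of all genes. For the averaged contrasts it was 3 for genotype, against 15.8%, and 4 for diet, against 14.4%. DESeq2 called 1 of the 10 for genotype under standard feeding, against 0.967% of all genes, and 2 for the diet in the knockout, against 3.88%. In the other 5 contrasts DESeq2 called 0 of the 10, against 0.258% for genotype under ketogenic feeding, 0.0687% for the diet in wild type, 0.0401% for the interaction, 2.38% for genotype averaged and 2.47% for diet averaged.

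Without KC888LL, 2 of the 10 genes, Nr3c2 and Mt1, were called for genotype on the standard diet, where 5.73% of all genes were, and the same 2 for the diet in the knockout, where 6.18% were. These 2 were also called for genotype averaged over diets, with 4.96% of all genes, and Nr3c2 alone for diet averaged over genotypes, with 2.58%. For genotype on the ketogenic diet, the diet in wild type and the interaction 0 of the 10 were called, against 0.0282%, 0.0113% and 0% of all genes. At an unadjusted p under 0.05 stood 4, 0 and 8 of the 10 in these 3 contrasts, against 9.68%, 5.59% and 11.5% of all genes. The counts were 6 for genotype under standard feeding, against 21.3%, 8 for the diet in the knockout, against 21.8%, and 6 for each averaged contrast, against 20.5% for genotype and 18.5% for diet. With Xist as a covariate as well, Nr3c2 alone was called for genotype on the standard diet, against 1.65% of all genes, for genotype averaged, against 4.22%, and for diet averaged, against 1.17%. In that fit 0 of the 10 were called for the diet in the knockout, against 0.299% of all genes, and 0 for genotype on the ketogenic diet, the diet in wild type and the interaction, against 0.0282%, 0.0113% and 0%.

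The median log2 fold change of the 10 genes between standard-fed knockouts and wild types was 0.30, with 6 higher and 4 lower, and over all tested genes it was 0.00. For the diet in the knockout the median was -0.34, with 2 higher and 8 lower, against 0.01 over all genes. Without KC888LL these medians were 0.39 and -0.44. The 2 that were higher were Nr3c2 and Fkbp5. With the diet in wild type the median was 0.07, and for genotype on the ketogenic diet it was -0.13. The groups did not overlap for 0 of the 10 genes between the genotypes on the standard diet, against 5.86% of all genes, and for 2 on the ketogenic diet (Nr3c1 and Plin4, both lower in the knockout), against 3.98%. They did not overlap for 2 genes with the diet in the knockout (Nr3c1 and Tsc22d3, both lower), against 6.39%, and for 0 with the diet in wild type, against 4.88%. Without KC888LL, 5 genes did not overlap for genotype on the standard diet, of which Sgk1, Mt1, Mt2 and Hif3a were higher and Nr3c2 lower in the knockout, where 22.1% of all genes did not overlap. For the diet in the knockout 5 did not overlap without KC888LL (Nr3c1, Tsc22d3, Mt1 and Hif3a lower and Nr3c2 higher), against 16.1% of all genes.

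Markers of other cells also differed with the diet in the knockout. Of 9 oligodendrocyte markers, 9 were lower and 8 were called (edgeR), against 1.16% of all genes, and their sum was 5081 to 5577 CPM on the standard diet and 1954 to 3662 CPM on the ketogenic diet in the knockout, against 4082 to 6319 and 3369 to 4277 CPM in wild type. These 9 markers were lower with the diet in wild type too, with 0 called and 9 at an unadjusted p under 0.05, against 5.46% of all genes. Of 8 microglia markers, 8 were lower with the diet in the knockout. Among these, 0 were called with all libraries and 7 without KC888LL, the fit in which Nr3c2 and Mt1 were called, against 6.18% of all genes. Of 5 blood markers 5 were lower with 4 called in both fits. Blood markers summed to 17.4 to 32.5 CPM in the ketogenic-fed knockouts and to 42.7 to 113 CPM in the other groups. Choroid plexus markers summed to 32.4 to 53.1 CPM in that group, and in each of the other groups they reached 553 CPM or more in at least 1 library. One blood marker, Hba-a2, and one choroid plexus marker, Folr1, were at 0 in 1 library each. The part of these cell types in the values of the 10 genes was not tested.

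Levels of different genes were compared per kilobase of exon, in CPM per kb averaged over the 16 libraries. The metallothioneins stood highest, at 77.5 for Mt2 and 76.1 for Mt1, followed by Nr3c2 at 32.5, Zbtb16 at 23.4, Sgk1 at 17.5, Tsc22d3 at 13.4, Nr3c1 at 10.5, Fkbp5 at 8.60, Hif3a at 2.63 and Plin4 at 1.499. Mt2 exceeded Mt1 in 5 of 16 libraries, so these 2 had no stable order. Each later gene was below the one before it in at least 13 of the 16 libraries, and Mt1 over Nr3c2, Nr3c2 over Zbtb16, Fkbp5 over Hif3a and Hif3a over Plin4 held in all 16. Per kilobase Nr3c2 was thus above Nr3c1 in level. The annotated exons of Mt1, 1246 bases, include transcripts that keep introns, and dividing by them lowers its level per kb.

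The patterns of the genes over the 16 libraries were compared by Pearson's r of log2 CPM. These are descriptions over libraries that share groups, so r after removal of group means (within groups) is given beside most. Mt1 and Mt2 were most like each other of all tested genes, with r = 0.976 and 0.955 within groups. Plin4 was most like Hif3a, with r = 0.864 and 0.791 within groups, while Hif3a was most like Rin2 (0.872, within groups 0.895) and the connexin gene Gjb6 (0.870), with Plin4 next. Tsc22d3 was most like Pdk4, a kinase of glucose oxidation that is itself on the list of other glucocorticoid-induced genes, with r = 0.904 and 0.865 within groups. Of the 45 pairs among the 10 genes, 3 had r above 0.7 within groups, and the range was -0.681 to 0.955.

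The genes nearest to the others were not among the 10. Nr3c2 was most like Sh3bp5 (r = 0.964, within groups 0.961), Arpc5 (0.954, within groups 0.912) and Otub2 (0.950, within groups 0.929). Nr3c1 was most like Ogn (0.868, within groups 0.777), Gm45623 (0.867, within groups 0.840) and Sytl2 (0.866, within groups 0.799). For Fkbp5 these were Zc3h18 (0.905, within groups 0.881), Rnf34 (0.894, within groups 0.859) and Psmc2 (0.866, within groups 0.830). For Zbtb16 they were Fah (0.887, within groups 0.852), Mturn (0.879) and Tnxb (0.874, within groups 0.844), and for Sgk1 Ggact (0.875, within groups 0.926), then Tapbp and Ift46. After each other, Mt1 and Mt2 were most like Plek and Sgpl1, with r from 0.918 to 0.937 and from 0.840 to 0.946 within groups. Csrp1 (0.899, within groups 0.815) and Emilin2 (0.873, within groups 0.850) followed Pdk4 for Tsc22d3, and Npcd (0.843, within groups 0.773) and Tap2 (0.828, within groups 0.803) followed Hif3a for Plin4.

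**Figure D4:**
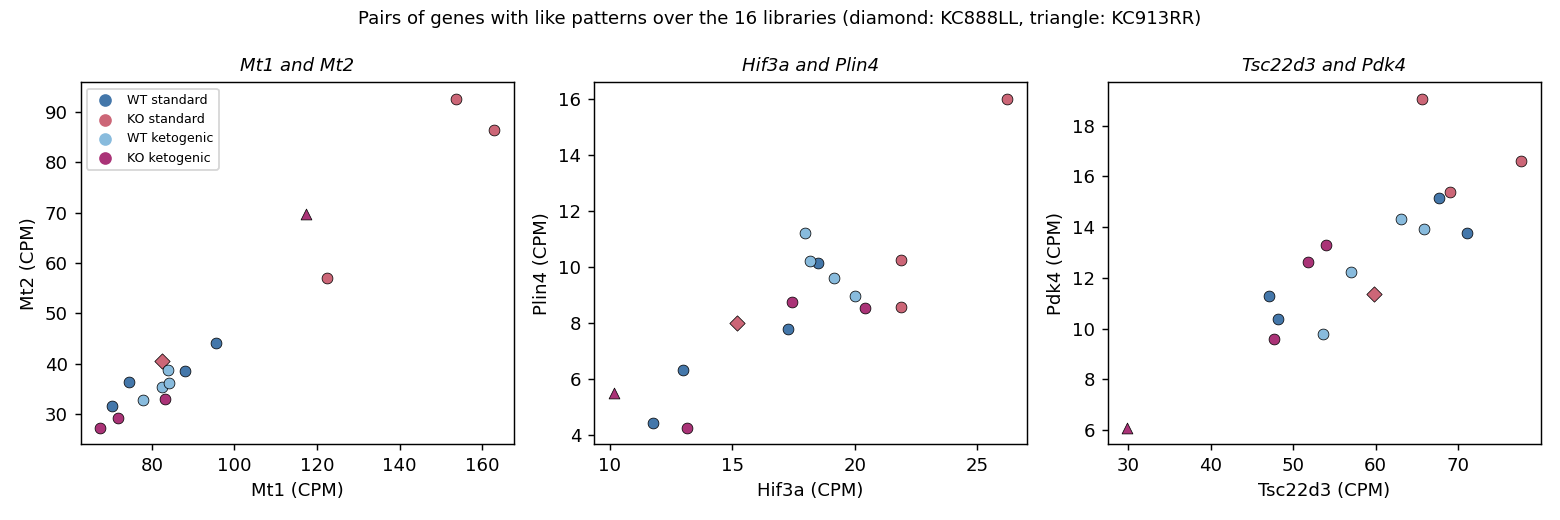
Level in CPM of Mt2 against Mt1, Plin4 against Hif3a and Pdk4 against Tsc22d3 in the 16 libraries, colored by group, the diamond marking KC888LL and the triangle KC913RR. For Mt1 and Mt2 KC872RL and KC873RR lie at the upper right with KC913RR next in Mt2 (69.6 CPM), and for Tsc22d3 KC913RR lies at the lower left (29.9 CPM).

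Other genes were taken from 5 lists, of which 2 concern the hormone pathway. Receptor partners and hormone metabolism, which includes the chaperones that hold the receptors ready for hormone and the enzymes that make or remove it, had 18 of 19 genes tested. With all libraries 0 were called in each of the 7 contrasts (edgeR), with 7 of 18 at an unadjusted p under 0.05 for genotype on the standard diet, against 14.3% of all genes, and 5 for the diet in the knockout, against 16.9%. The smallest p on the standard diet were those of Hsd11b1, which regenerates active glucocorticoid, at -0.36 ± 0.11 (edgeR, adjusted p = 0.204), and of the chaperone partner Fkbp4 at -0.17 ± 0.06 (edgeR, adjusted p = 0.205). Without KC888LL 3 of the 18 were called there, against 5.73% of all genes, and all 3 were lower in the knockout: Fkbp4 at -0.23 (edgeR, adjusted p = 0.0215), the co-chaperone Stip1 at -0.22 (0.0374) and the corticotropin-releasing hormone receptor Crhr1 at -0.66 (0.0464). With the diet in the knockout Stip1 rose by 0.25 (edgeR, adjusted p = 0.0193) and Abcb1a, a drug and steroid efflux pump, fell by 0.59 (0.0480) in the fit without KC888LL, where 6.18% of all genes were called.

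Of the other glucocorticoid-induced genes 23 of 24 were tested, and with all libraries 0 were called in each contrast (edgeR), with 6 of 23 at an unadjusted p under 0.05 for genotype on the standard diet, against 14.3% of all genes, and 6 for the diet in the knockout, against 16.9%. Their median log2 fold change was 0.07 for genotype on the standard diet and -0.08 for the diet in the knockout, against 0.30 and -0.34 for the 8 hormone-induced genes and 2 receptors together. Per1, a clock gene, and Dusp1, a phosphatase gene, had the smallest p for genotype on the ketogenic diet, at -0.40 ± 0.08 and -0.93 ± 0.19 (edgeR, adjusted p = 0.170 for each). Both are also induced by neuronal activity, whose markers summed to 398 to 475 CPM in the wild types and 112 to 287 CPM in the knockout on that diet. On the standard diet these markers summed to 257 to 353 CPM in the wild types, to 96.1, 133 and 110 CPM in KC872RL, KC873RR and KC893RL and to 277 CPM in KC888LL, and without KC888LL, as in the calls of Nr3c2 and Mt1, 5 of 6 were called lower (edgeR). The part of activity in any of these values was not tested. Without KC888LL 3 of the 23 genes were called higher in the standard-fed knockouts (edgeR), against 5.73% of all genes called in either direction: Tgm2, a transglutaminase, at 0.72 (adjusted p = 0.00234), Fam107a at 0.68 (0.0282) and Sesn1 at 0.46 (0.0369). In that fit Tgm2 fell by 0.61 with the diet in the knockout (edgeR, adjusted p = 0.00499). It was the 1 gene of the 23 called there, against 6.18% of all genes.

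The last 3 lists cover the other settings in which Mt1, Mt2, Hif3a and Plin4 are known. With all libraries 0 genes of the 3 lists were called in each contrast (edgeR). The unadjusted p was under 0.05 for 2 of 8 zinc and metal genes, 2 of 13 hypoxia genes and 1 of 7 lipid droplet genes for genotype on the standard diet, against 14.3% of all genes, so that the last 2 shares were near that of all genes. For the diet in the knockout the counts were 3, 2 and 3, against 16.9%. Without KC888LL the heme oxygenase gene Hmox1 rose by 1.24 (edgeR, adjusted p = 0.0237), the peptide hormone gene Adm by 1.40 (0.0450) and the lipase gene Pnpla2 by 0.41 (0.0364) in the standard-fed knockouts. These were 1 of 8 zinc and metal genes, 1 of 13 hypoxia genes and 1 of 7 lipid droplet genes, against 5.73% of all genes called. Adm was low and uneven, at 1.96 CPM in KC872RL, 0.76 in KC873RR and 0.95 in KC893RL. With the diet in the knockout, in the same fit, Slc39a10, a zinc importer, rose by 0.31 (edgeR, adjusted p = 0.0479) and Ldha, lactate dehydrogenase, by 0.63 (0.0473). These were 1 of 8 zinc and metal genes and 1 of 13 hypoxia genes, against 6.18% of all genes called. Ldha measured 350, 197, 255 and 182 CPM in the ketogenic-fed knockouts, highest in KC913RR. The lipid droplet coat genes Plin3 and Plin2 fell by 0.65 (edgeR, adjusted p = 0.0119) and 0.84 (0.0277) and Pnpla2 by 0.42 (0.0311), and 7 of 7 tested lipid droplet genes were lower in this fit, against 6 of 7 with all libraries. The calls were 3 of 7 genes, against 6.18% of all genes. Plin2 was low and uneven, at 8.25 CPM in KC872RL, 8.10 in KC873RR and 4.38 in KC893RL. Ketogenic-fed knockouts held 3.44 to 4.35 CPM of it. In the same comparison and fit 7 of 8 microglia and 8 of 9 oligodendrocyte markers were also called lower (edgeR). The part of these cell types in the lipid droplet values was not tested. With all libraries Plin3 was at -0.57 ± 0.14 in this comparison (edgeR, adjusted p = 0.0534).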

How the data were processed

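Hippocampal RNA sequencing of 16 mouse libraries was used as 1 table of raw counts per gene, deposited by the authors, with 1 column per animal. Per the submitters' processing notes the build mm10 and DESeq2 were used, with no role given. The aligner, counter, annotation and strand setting are not given in the sources used here, so overlapping genes (Nr3c2 with Gm10649, Plin4 with Hdgfl2 and Mt2 with Gm45774) are uncertain. Of 49315 identifiers, 49056 were found in GENCODE M21 (GRCm38), used for positions and exon lengths. Columns carried genotype, diet and an animal tag but no replicate number, so each was assigned to its group.

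Counts were fitted with edgeR 4.0.16 in R 4.3.3: filterByExpr by group, TMM factors, a robust quasi-likelihood model with 1 coefficient per group over 16 libraries (12 residual degrees of freedom) and two-sided F tests of 7 contrasts. Adjustment was by Benjamini and Hochberg's method over 17469 genes, and an adjusted p under 0.05 is a call. CPM used effective library sizes, and log2 CPM a prior count of 2. The fit was tested on simulated data. Alternatives were DESeq2 1.42.0, RLE factors, other filters (any count, or at least 10 in every library), no robust estimation, the compared groups alone, the Xist level (log2 CPM) as covariate, and leaving out single libraries. The fit without KC888LL and with Xist was chosen after seeing the data.

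The 10 genes and the lists were chosen with earlier results of these data known. Genes named were the 10, Kcna1, up to 4 called genes per direction of each list (or up to 2 of smallest p) and the 3 genes most like each of the 10. Ddx3y, Xist, Gfap and list counts describe the libraries.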

Additional observations from a re-analysis of the deposited data

Results flagged for a closer look

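In 48 groups of 4 libraries, covering the 10 genes, Kcna1 and the receptor ratio, the highest and lowest library were compared with the nearest of the others, and a gap above Dixon's critical value for 4 values was taken as a stray value. About 1 such group in 20 is found where values differ by chance alone, and 2 of the 48 were found here, a number that by itself does not stand out. The 48 groups share libraries, and the count says nothing of either single value. Mt2 measured 69.6 CPM in KC913RR, a knockout library on the ketogenic diet, against 33.1 CPM in the nearest library of that group, a gap of 0.864 of the range. Kcna1 measured 82.0 CPM in KC888LL, labelled knockout on the standard diet, against 47.0 CPM in the nearest, a gap of 0.937 of the range.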

How the results depend on the processing

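The number of the 10 genes called was 0 in every contrast with edgeR on all libraries, and it depended on KC888LL. With 1 library left out, in 8 fits for a pairwise contrast (the libraries of its groups) and 16 for the others, it ranged from 0 to 2 for genotype on the standard diet, for the diet in the knockout and for genotype averaged over diets, and from 0 to 1 for diet averaged over genotypes. The counts above 0 in these fits came without KC888LL. DESeq2 gave 1 for genotype on the standard diet and 2 for the diet in the knockout. Without KC888LL and with Xist as a covariate the counts were 1 for genotype on the standard diet, 1 for genotype averaged over diets and 1 for diet averaged over genotypes, with 292, 748 and 208 genes called over all genes. Calls over all genes, 1, 3, 202, 2, 0, 17 and 157 in the 7 contrasts (genotype on the standard and on the ketogenic diet, diet in the knockout and in wild type, interaction, and genotype and diet averaged), ranged over the alternatives from 0 to 1016, 1 to 45, 7 to 1096, 0 to 12, 0 to 7, 6 to 880 and 51 to 457. The cause was not tested.

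Signs turned for some differences that were not called. With Xist as a covariate, the log2 fold change was 0.0298 for Zbtb16 with genotype on the standard diet, 0.0082 for Sgk1 with genotype on the ketogenic diet, -0.0257 for Mt1 with the diet in wild type, -0.0309 for Plin4 with genotype averaged and -0.0166 for Zbtb16 with diet averaged. Without KC888LL as well, it was -0.0135 for Mt1 with the diet in wild type, -0.0247 for Fkbp5 with genotype averaged and -0.0177 for Sgk1 with diet averaged. With each library left out in turn, signs turned with the diet in wild type for Fkbp5 (-0.0533 to 0.0569), Mt1 (-0.0664 to 0.080), Mt2 (-0.15 to 0.0069) and Tsc22d3 (-0.0567 to 0.14). They turned with genotype on the ketogenic diet for Mt1 (-0.14 to 0.14), Mt2 (-0.26 to 0.298), Nr3c2 (-0.15 to 0.0109) and Sgk1 (-0.0914 to 0.0637), and on the standard diet for Zbtb16 (-0.0742 to 0.0429). They also turned with genotype averaged for Fkbp5 (-0.0157 to 0.0569) and Plin4 (-0.12 to 0.11), and with diet averaged for Plin4 (-0.18 to 0.0336) and Zbtb16 (-0.0506 to 0.0549).

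No paired analysis was possible because the columns of the table carry no replicate number. Of the comparisons named in the report, those with the knockout on the standard diet rest on 3 or 4 libraries, of which 2 express Y-linked genes. Plin4, at 4.25 to 16.02 CPM, is the gene with the fewest counts and so the largest counting error of the 10.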

Other observations

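Of the calls of the averaged contrasts without KC888LL, those among the lists were as follows. For genotype 2 of 18 receptor partners, 3 of 23 other hormone-induced genes and 1 of 8 zinc genes were called lower, against 4.96% of all genes called. Called higher were 1 of the 23, 1 of the 8 and 1 of 13 hypoxia genes. For diet 1 of 18 receptor partners and 1 of 7 lipid droplet genes were called lower, against 2.58% of all genes. For genotype averaged over diets, Dusp1 was at -0.75 (edgeR, adjusted p = 0.0114), Crhr1 at -0.59 (0.0145), Per1 at -0.28 (0.0166), Slc30a3, the transporter that loads zinc into synaptic vesicles, at -0.38 (0.0374), Errfi1 at -0.23 (0.0412) and Fkbp4 at -0.14 (0.0323). Higher in the knockout were Adm at 0.99 (edgeR, adjusted p = 0.0319), Hmox1 at 0.77 (0.0393) and Tgm2 at 0.36 (0.0124). For diet averaged over genotypes, Plin3 was at -0.42 (edgeR, adjusted p = 0.0261) and the chaperone gene Hsp90b1 at -0.13 (0.0489). In this fit 5 of 6 activity markers were called lower for genotype averaged and 9 of 9 oligodendrocyte markers for diet averaged, with 0 called higher. Their part in these values was not tested.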
